A study of Mus musculus with 6 samples.

Results

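The clustered replication-dependent histone genes, Hist1h to Hist4h in the nomenclature of the array, were examined in C2C12 myotubes exposed to a sugarcane top ethanolic extract (STEE). Members were all probe sets of the Clariom S Mouse array with at least 1 symbol beginning Hist1h, Hist2h, Hist3h or Hist4h, whatever their values, which gave 66 of the 22206 probe sets tested. They carry 69 distinct histone symbols. Of the 66 probe sets, 59 have 1 symbol and 7 have several. C2C12 is a clonal mouse myoblast line that fuses into multinucleated myotubes when serum is reduced, and the study asked how the extract alters gene expression in muscle cells. Total RNA was read on 2 arrays each for untreated myotubes (Ctrl-M), myotubes given 30 µg/mL STEE for 6 h (STEE30-M) and myotubes given 50 µg/mL STEE for 6 h (STEE50-M). All groups were on day 6 of differentiation on collagen-coated plates, the extract was applied in serum-free Opti-MEM from a stock in aqueous ethanol, and the sources used here do not say whether Ctrl-M received that solvent. The methods speak of biological replicates and the deposited design of duplicate arrays, and a p-value here covers no more than the spread among these 6 arrays.

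Histones package DNA: the core histones H2A, H2B, H3 and H4 form the nucleosome, and the linker histone H1 binds the DNA where it enters and leaves. As a rule the clustered genes lack introns and are transcribed mainly in S phase, when new chromatin is assembled. Their mRNAs end in a stem-loop bound by SLBP instead of a poly(A) tail and are degraded when DNA synthesis stops. Nuclei within myotubes have left the cell cycle, but C2C12 cultures keep mononucleated cells that do not fuse. The labelling kit primes along the whole transcript, so that RNA without a poly(A) tail can also be measured. In RNA of a whole culture, fewer cells of a type and less RNA per cell cannot be told apart.

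All 69 symbols were matched to RefSeq on GRCm38.p6, the build of the array annotation. Chromosome 13 holds 55 of these genes (the Hist1 genes), chromosome 3 holds 10 (Hist2), chromosome 11 holds 3 (Hist3) and chromosome 6 holds 1 (Hist4). Among the Hist1 genes, Hist1h2al was matched to H2af-ps2, by its name a pseudogene, and lies far from the others (start at base 51200084). Among the genes with a promoter window, which gives their strand, 10 pairs of an H2A and an H2B gene lie head to head on chromosome 13, with 163 to 280 bases between their start sites (median 203.5). RefSeq promoter windows were at hand for 62 genes. The letters before the start site are shown for 6 of them because they display what the 5 histone classes share and where they part. Capitals mark the TATA box (letters TATAAA), the CCAAT box (CCAAT), the octamer (ATTTGCAT), the H1 box (AAACACAA) and an element of H4 promoters (GGTCCG), read on both strands. In current RefSeq these genes are H1f5, H1f6, H2bc8, H2bc11, H3c8 and H4c4, in the order shown. Each sequence runs 5′ to 3′ along the strand of its gene and stops at the base before the start site.

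Hist1h1b (H1; chr13:21780626-21780775, minus strand): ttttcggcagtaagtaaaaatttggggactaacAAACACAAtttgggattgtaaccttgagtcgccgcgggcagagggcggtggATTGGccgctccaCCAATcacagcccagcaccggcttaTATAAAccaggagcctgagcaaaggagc
Hist1h1t (H1 of testis; chr13:23695661-23695810, plus strand): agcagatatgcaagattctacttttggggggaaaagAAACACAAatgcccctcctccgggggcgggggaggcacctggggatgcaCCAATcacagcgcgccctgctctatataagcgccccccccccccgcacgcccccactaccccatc
Hist1h2bg (H2B; chr13:23571221-23571399, plus strand, the whole stretch shared with Hist1h2ae): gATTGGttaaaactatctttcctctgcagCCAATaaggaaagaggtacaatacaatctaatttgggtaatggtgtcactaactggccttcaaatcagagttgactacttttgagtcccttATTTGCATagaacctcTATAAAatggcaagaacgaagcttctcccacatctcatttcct
Hist1h2bj (H2B; chr13:22042950-22043197, plus strand, the whole stretch shared with Hist1h2ag): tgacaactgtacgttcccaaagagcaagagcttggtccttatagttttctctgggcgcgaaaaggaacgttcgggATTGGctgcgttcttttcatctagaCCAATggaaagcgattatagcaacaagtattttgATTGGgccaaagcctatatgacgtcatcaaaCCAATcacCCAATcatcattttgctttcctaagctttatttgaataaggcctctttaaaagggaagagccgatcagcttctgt
Hist1h3g (H3; chr13:23535268-23535417, plus strand): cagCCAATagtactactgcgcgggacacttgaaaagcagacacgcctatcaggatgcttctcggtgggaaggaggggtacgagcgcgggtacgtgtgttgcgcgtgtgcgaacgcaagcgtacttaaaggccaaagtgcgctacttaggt
Hist1h4d (H4; chr13:23581418-23581567, plus strand): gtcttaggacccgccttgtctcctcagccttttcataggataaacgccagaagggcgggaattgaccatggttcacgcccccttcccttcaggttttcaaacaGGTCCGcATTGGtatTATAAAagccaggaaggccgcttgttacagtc

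In the 250 bases before the start site, CCAAT was present in 52 of 63 member windows (82.5%), against 33.8% of all 32851 promoter windows. It was in every H1, H2A and H2B window, in 8 of 10 H3 windows and in 3 of 12 H4 windows. TATAAA, on either strand and at any position, was in 46.0% of member windows and 12.4% of all windows. It was on the gene strand in 24 member windows. In 12 of these the first match lay 20 to 40 bases before the start site. The octamer, a site for Oct1 (Pou2f1), was confined to the H2A and H2B genes among the members, with 7 of 18 and 7 of 17 windows, against 1.6% of all windows. The windows of head-to-head H2A and H2B genes overlap and both strands were read, so a shared site counts for both genes. The octamer of Hist1h2bg, for example, was also counted for Hist1h2ae. For every motif the H2A and H2B counts are therefore not independent. The H1 box was found in 4 of 6 H1 windows (66.7%), against 1.67% of all windows. GGTCCG was found in 9 of 12 H4 windows (75.0%), against 6.72% of all windows. These are letter matches, and binding was not measured.

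Values are log2 signals, so a difference of 1 is a 2-fold difference, and since probes differ in brightness, signals of different probe sets served only to choose which members to name and to set the background, not as relative amounts of RNA. The background level was 5.33, the 95th percentile of the mean signals of 1497 probe sets for chemosensory receptors. By this measure 61 of the 66 histone probe sets were above background, in comparison to 54.2% of all probe sets. The 13 H4 and 17 H2A probe sets were all above it, as were 16 of 18 for H2B, 9 of 10 for H3 and 4 of 5 for H1. The 5 probe sets at or below background were Hist1h1t (the testis linker histone), Hist1h3a, Hist3h2ba, the pseudogene Hist3h2bb-ps and the probe set shared by Hist1h2be and Hist1h1e. The array medians lay between 5.70 and 5.77, and the correlation between any 2 arrays over all probe sets was at least 0.991.

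Near-identical genes could not be separated by every probe set. In 4 cases a pair of probe sets held the same values on all 6 arrays, namely Hist2h2aa1 and Hist2h2aa2, Hist2h3c1 and Hist2h3c2, Hist1h4n and the probe set shared by Hist1h4m and Hist1h4n, and Hist1h2ap and the probe set shared by Hist1h2ao, Hist1h2ap, Hist1h2ai and Hist1h2ah. The members therefore hold 62 distinct profiles. A further probe set spans an H2A and H3 genes (Hist1h2ad, Hist1h3b and Hist1h3d), and another carries the ubiquitin ligase gene Trim17 beside Hist3h2a.

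At 30 µg/mL, 50 of the 66 members stood above Ctrl-M, against 10764 of all 22206 probe sets. The median log2 fold change of the members was 0.09, but it was −0.08 without STEE30-M replicate 2. A probe set was counted as changed at an unadjusted limma p under 0.05 and a fold of at least 1.2. By this rule 1 of 66 members changed in STEE30-M in comparison to Ctrl-M, against 4.09% of all probe sets (2.04% higher and 2.06% lower). It was Hist1h1t, which stood at 4.83 and 4.37 in STEE30-M and at 5.06 and 5.27 in Ctrl-M. Both STEE30-M arrays lay below both Ctrl-M arrays (log2 fold change −0.56, SE 0.23, unadjusted p = 0.0396, adjusted p = 0.998, limma), but the gene was below background in this culture. Its call was lost when dim probe sets were left out, under an unmoderated test and without any 1 array other than STEE30-M replicate 1. Without that array, 3 members passed, Hist1h1t lower and Hist1h2br and Hist3h2ba higher, against 6.77% of all probe sets.

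The log2 fold changes of the members in STEE30-M ranged from −0.56 to 0.50 (median of all probe sets −0.01), and 50 were above 0 and 15 below. The H2B genes had a median of 0.16, followed by H3 (0.09), H2A (0.05), H4 (0.05) and H1 (0.02). For Hist1h2bf, an H2B gene, the signals were 15.53 and 16.10 in STEE30-M and 15.47 and 15.63 in Ctrl-M. The difference of 0.27 (SE 0.35, 95% interval −0.54 to 1.07) was smaller than the gap between the STEE30-M arrays. Hist1h4d, an H4 gene, stood at 16.40 and 16.51 in STEE30-M and 16.15 and 16.24 in Ctrl-M, without overlap (0.26, SE 0.26, unadjusted p = 0.34, limma). In all, 11 members did not overlap between STEE30-M and Ctrl-M, 8 higher and 3 lower, in comparison to 30.2% of all probe sets. The median followed 1 array, since it was 0.23 without STEE30-M replicate 1 and −0.08 without STEE30-M replicate 2.

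At 50 µg/mL, 0 of 66 members changed in STEE50-M in comparison to Ctrl-M by the limma test, against 5.05% of all probe sets (2.36% higher and 2.69% lower). The smallest unadjusted p among the members was 0.297, that of Hist2h2ac, and the unmoderated test also called 0. The median log2 fold change was 0.04 (all probe sets −0.01) with a range from −0.24 to 0.29, and 39 members were above 0 and 25 below. By class the medians were 0.17 for H1, 0.11 for H2B, 0.02 for H4, −0.02 for H3 and −0.06 for H2A. The 10 probe sets of the Hist2 genes had a median of −0.07, with 8 of 10 below 0. Only 5 members did not overlap between the groups, against 34.7% of all probe sets. Those higher in STEE50-M were Hist1h1c, Hist1h2bc, Hist3h2ba and the probe set of Hist1h2bq and Hist1h2br, and the one lower was Hist2h2ac. Without Ctrl-M replicate 1 the median of all members was −0.01.

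**Figure D1:**
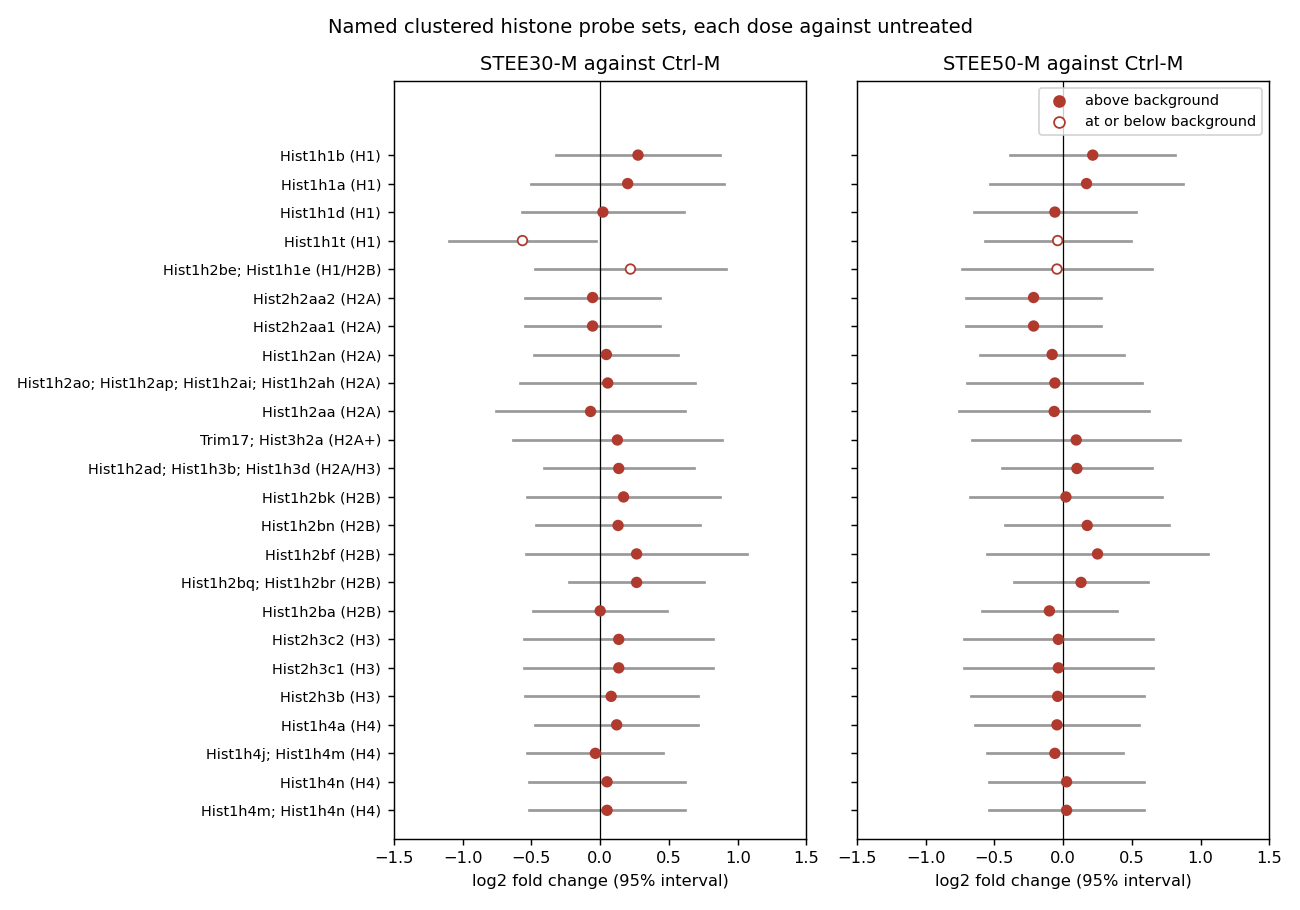
Log2 fold change (points) with its 95% interval (lines) from limma for 24 histone probe sets in STEE30-M against Ctrl-M (left) and STEE50-M against Ctrl-M (right), with the histone class in parentheses (H2A+ marks the probe set shared with Trim17). Filled points are above background, and the interval of Hist1h1t in STEE30-M is the only one that leaves out 0.

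The flat average at 50 µg/mL was made of 2 arrays that stood on opposite sides of the untreated cells. Relative to the Ctrl-M mean, the median of the 61 members above background was 0.38 on STEE50-M replicate 1 and −0.32 on replicate 2, while it was −0.08 and 0.24 on the STEE30-M arrays. STEE50-M replicate 1 was above STEE50-M replicate 2 in 64 of 66 members, with a median gap of 0.69 and a range from −0.36 to 1.22. A gap of at least 0.5 in that direction was found for 71.2% of the members, in comparison to 10.7% of all probe sets. Among probe sets above background, the shares were 75.4% of the members and 7.58% of all. All core histone classes showed the gap, with medians of 0.69 for H2A, 0.75 for H2B, 0.83 for H3 and 0.61 for H4, and the linker histones had 0.56. In Ctrl-M and in STEE30-M, the median gap was −0.10 and −0.26. For the members, the median SD between the arrays of a group was 0.09 for Ctrl-M, 0.20 for STEE30-M and 0.48 for STEE50-M. For all probe sets it was 0.15, 0.19 and 0.18 in the same order. No test was made of this gap, since it lies within a group.

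**Figure D2:**
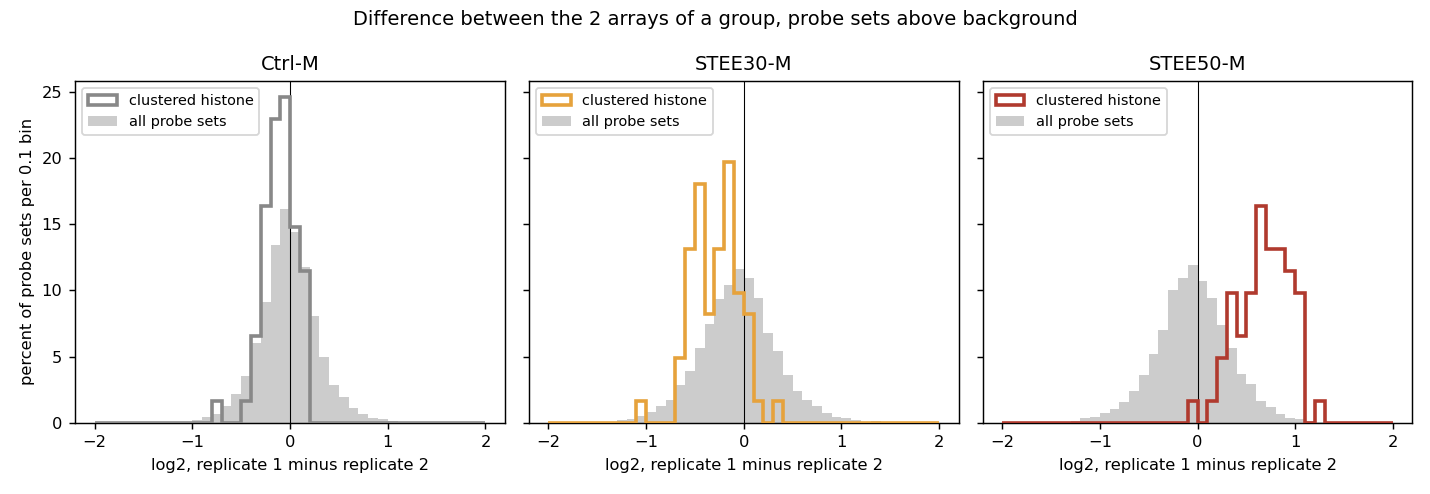
Difference in log2 signal between the 2 arrays of each group (replicate 1 minus replicate 2) for the 61 histone probe sets above background (coloured outline) and all 12025 probe sets above background (grey), as percent of probe sets per bin of 0.1, with differences beyond 2 placed in the outer bins. The histone genes lie to the right of the other probe sets in STEE50-M, with a median of 0.70 against −0.04.

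The linker histones serve to show the arrays one by one. Hist1h1a, a linker histone of dividing cells, had signals of 12.82 and 13.00 in Ctrl-M, 13.15 and 13.07 in STEE30-M and 13.57 and 12.59 in STEE50-M. The highest and the lowest of the 6 arrays were thus the 2 arrays of STEE50-M. Hist1h1b, whose promoter is shown above, had 14.00 and 14.22 in Ctrl-M, 14.57 and 14.20 in STEE30-M and 14.62 and 14.03 in STEE50-M. The groups overlapped, and the STEE50-M mean differed from Ctrl-M by 0.21 (SE 0.26, 95% interval −0.38 to 0.81). Hist1h1d had 12.32 and 12.74 in Ctrl-M, 12.51 and 12.59 in STEE30-M and 12.75 and 12.19 in STEE50-M. Hist1h1c, a linker histone also made in non-dividing cells, was the one member above background in which STEE50-M replicate 1 was not the higher, with 10.04 and 9.89 in Ctrl-M, 9.45 and 10.08 in STEE30-M and 10.12 and 10.21 in STEE50-M. Both STEE50-M arrays of this gene lay above all other arrays (log2 fold change against Ctrl-M 0.20, SE 0.25, unadjusted p = 0.447, limma).

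Among the H2A genes, Hist2h2aa1, with the same values as Hist2h2aa2, had 18.33 and 18.22 in Ctrl-M, 18.16 and 18.28 in STEE30-M and 18.23 and 17.89 in STEE50-M. The lowest array was STEE50-M replicate 2 and the difference from Ctrl-M was −0.21 (SE 0.22, 95% interval −0.71 to 0.28). Hist1h2an had 18.08 on both Ctrl-M arrays, 18.06 and 18.19 in STEE30-M and 18.24 and 17.76 in STEE50-M. The 2 STEE50-M arrays again enclosed the other 4. Hist1h2ac had 11.78 and 11.81 in Ctrl-M, 11.77 and 11.92 in STEE30-M and 12.53 and 11.62 in STEE50-M. Its Ctrl-M and STEE30-M arrays lay close together, and the gap of 0.91 was within STEE50-M. Over the 17 H2A probe sets, the gap in STEE50-M ran from 0.31 to 0.93 and never turned. The lowest was that of Hist1h2al, matched in RefSeq to H2af-ps2. The testis gene Hist1h2aa was above background and had 10.25 and 10.57 in Ctrl-M, 10.34 on both STEE30-M arrays and 10.80 and 9.89 in STEE50-M. Near-identical histone genes were not separated by every probe set. Whether other H2A transcripts add to the signals of Hist1h2aa and Hist1h2al was not tested.

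All 18 H2B probe sets were higher on STEE50-M replicate 1 than on replicate 2. Hist1h2bf had 15.47 and 15.63 in Ctrl-M, 15.53 and 16.10 in STEE30-M and 16.34 and 15.26 in STEE50-M. Hist1h2bk had 15.66 and 15.88 in Ctrl-M, 15.63 and 16.25 in STEE30-M and 16.16 and 15.42 in STEE50-M. In both genes STEE50-M replicate 1 and STEE30-M replicate 2 were the highest 2 arrays, and STEE50-M replicate 2 was the lowest. Hist1h2bn had the same lowest array, with 15.67 and 15.70 in Ctrl-M, 15.67 and 15.96 in STEE30-M and 16.19 and 15.53 in STEE50-M. For Hist1h2bg, which shares its upstream stretch with Hist1h2ae, the signals were 12.91 and 13.02 in Ctrl-M, 12.90 and 13.20 in STEE30-M and 13.57 and 12.50 in STEE50-M. The partner Hist1h2ae had 16.21 and 16.19 in Ctrl-M, 16.07 and 16.60 in STEE30-M and 16.75 and 15.85 in STEE50-M. The 2 genes of this divergent pair therefore ranked STEE50-M replicate 1 first, STEE30-M replicate 2 second and STEE50-M replicate 2 last. In all 10 divergent pairs found among genes with a promoter window, both genes were higher in STEE50-M replicate 1 than in replicate 2. Hist1h2bq, Hist1h2ao and Hist1h2ad were read there by probe sets that other histone genes share, so the pairs are not independent. Every H2A and H2B probe set had this order of the STEE50-M arrays, so the count of pairs follows from that and is not particular to pairs. Smaller gaps were seen for Hist1h2bc (0.27), for the probe set of Hist1h2bq and Hist1h2br (0.16) and for the testis gene Hist1h2ba (0.29).

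Of the H3 genes, Hist1h3g had the widest gap of all members, 1.22, with 15.32 and 15.24 in Ctrl-M, 15.21 and 15.68 in STEE30-M and 15.89 and 14.67 in STEE50-M. The mean of STEE50-M was equal to that of Ctrl-M (difference 0.00, 95% interval −0.84 to 0.84). Hist2h3c1, with the same values as Hist2h3c2, had 17.97 and 17.95 in Ctrl-M, 17.87 and 18.32 in STEE30-M and 18.35 and 17.50 in STEE50-M. Hist2h3b followed with 17.92 and 17.91 in Ctrl-M, 17.90 and 18.09 in STEE30-M and 18.27 and 17.48 in STEE50-M. In both, the untreated arrays nearly coincided while those of STEE50-M lay on either side. Hist1h3a, at or below background, was the H3 probe set in which STEE50-M replicate 2 was the higher (4.87 on replicate 1 and 5.23 on replicate 2).

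The H4 genes encode the same protein from separate loci, and all 13 probe sets were higher on STEE50-M replicate 1 than on replicate 2. Hist1h4a had 16.99 and 17.07 in Ctrl-M, 17.11 and 17.19 in STEE30-M and 17.34 and 16.63 in STEE50-M. The probe set shared by Hist1h4j and Hist1h4m had 16.65 and 16.90 in Ctrl-M, 16.70 and 16.78 in STEE30-M and 16.86 and 16.57 in STEE50-M, the narrowest gap of the H4 probe sets at 0.29. For both, STEE50-M replicate 2 was the lowest array. Hist2h4 had 15.62 and 15.44 in Ctrl-M, 15.08 and 16.12 in STEE30-M and 16.14 and 15.10 in STEE50-M. For this gene the arrays of both treated groups were apart by 1.04, in opposite order of replicate number. Hist4h4, the lone gene of chromosome 6, had 6.33 and 6.40 in Ctrl-M, 6.26 and 6.18 in STEE30-M and 6.65 and 6.31 in STEE50-M. Its gap was 0.34, beside medians of 0.69 for the Hist1 genes, 0.79 for Hist2 and 0.56 for Hist3.

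**Figure D3:**
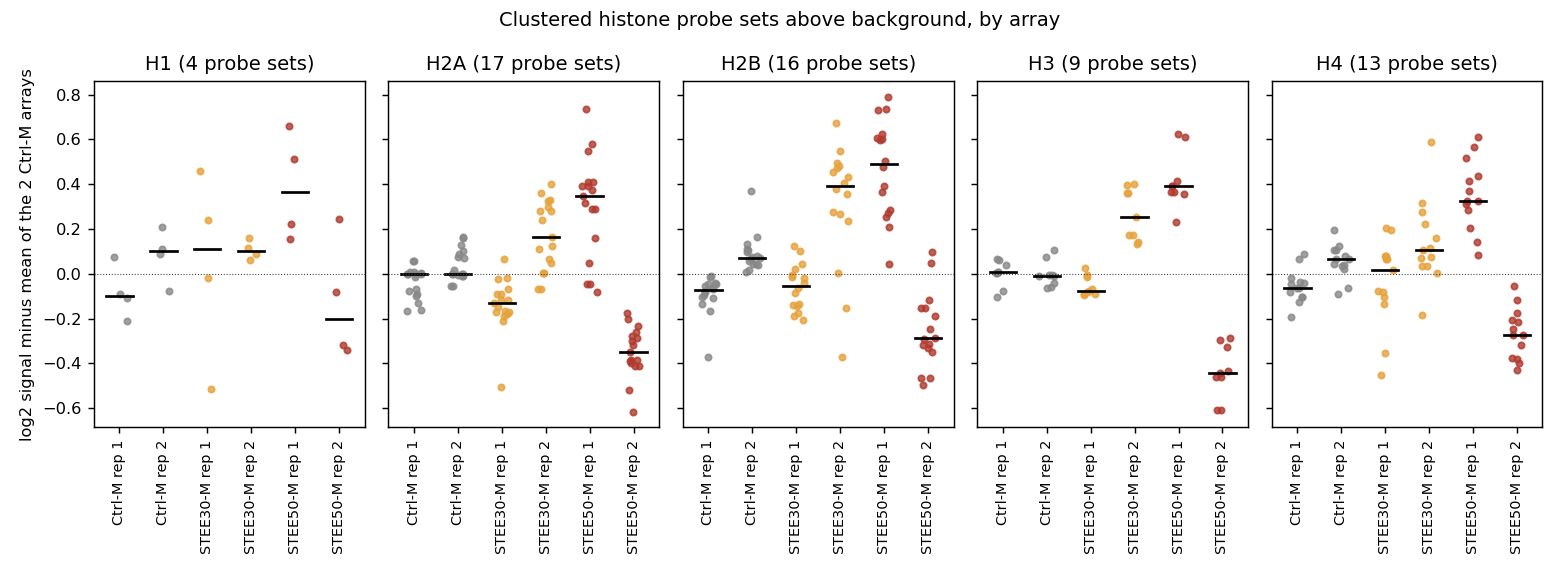
Log2 signal of each histone probe set above background minus its mean over the 2 Ctrl-M arrays (points), by array and class, for the 59 that belong to 1 class. Black bars are class medians, and in H2A, H2B, H3 and H4 the medians of STEE50-M replicate 1 lie above 0 and those of STEE50-M replicate 2 below.

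The median at 50 µg/mL accordingly depended on which array was kept. Without STEE50-M replicate 2, the median log2 fold change of the members against Ctrl-M was 0.37. Without STEE50-M replicate 1, it was −0.31. In these fits the spread of the lone array was taken from the other groups, so only the medians are given here.

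Between the doses, 0 of 66 members changed in STEE50-M in comparison to STEE30-M by the limma test, against 4.61% of all probe sets (2.25% higher and 2.36% lower). The smallest unadjusted p was 0.0523 for Hist1h1t, and the unmoderated test called 0. The median difference was −0.04 (all probe sets −0.01), with 19 members above 0 and 46 below. Only 3 members did not overlap, all higher in STEE50-M, against 28.4% of all probe sets: Hist1h1t, Hist1h1c and Hist4h4. The median was −0.37 without STEE50-M replicate 1 and 0.29 without STEE50-M replicate 2, and leaving out either STEE30-M array also turned or widened it (−0.18 without replicate 1 and 0.11 without replicate 2).

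Markers of other states were set beside the gap. The 12 myotube markers were all above background, and all 12 were lower in STEE50-M replicate 1 than in replicate 2. Their mean log2 signal was 14.40 and 14.61 in Ctrl-M, 14.41 and 14.57 in STEE30-M and 14.40 and 15.25 in STEE50-M. The 10 markers of proliferating cells were also all above background, with means of 12.35 and 12.25 in Ctrl-M, 12.52 and 12.07 in STEE30-M and 12.44 and 11.98 in STEE50-M. Replicate 1 was higher in 9 of these 10 in STEE50-M and in 10 of 10 in STEE30-M. The histone genes matched this order in STEE50-M but not in STEE30-M, where replicate 1 was the lower in 56 of 66 members. Of the markers of myoblasts and reserve cells, 9 of 10 were above background (mean 9.50 and 9.49 in Ctrl-M, 9.71 and 9.78 in STEE30-M, and for STEE50-M 9.95 and 9.65), as were 5 of 6 fibroblast markers (9.80 and 9.84, 9.86 and 10.00, 10.04 and 9.86 in the same order). The part of these markers in the histone values was not tested.

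**Figure D4:**
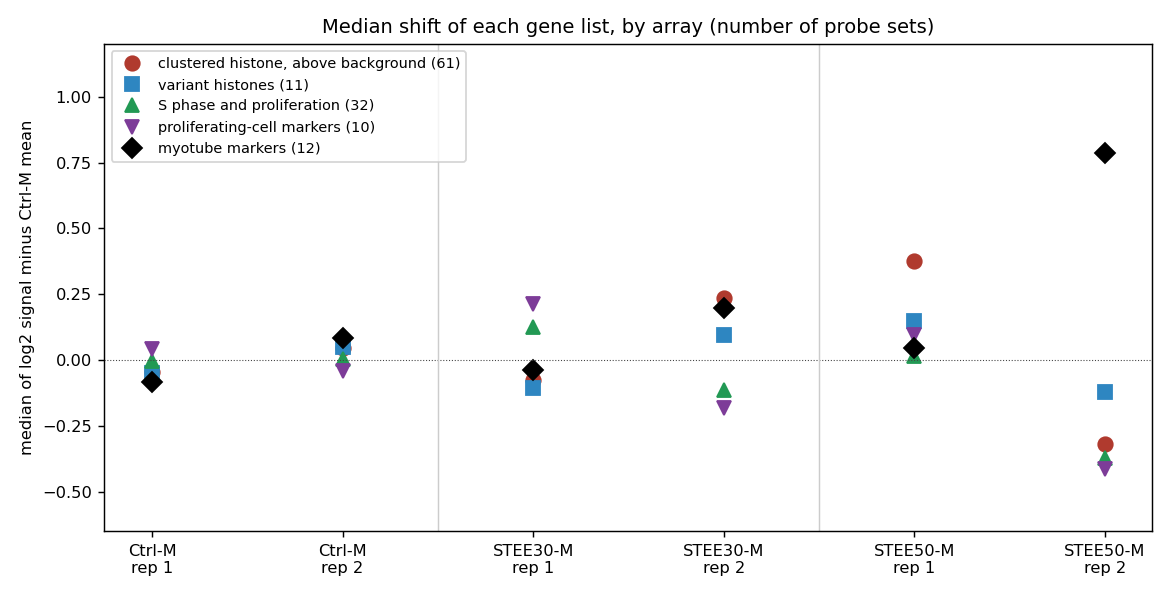
Median over each gene list of the log2 signal minus the Ctrl-M mean, by array, with the number of probe sets of each list in parentheses. On STEE50-M replicate 2 the myotube markers stand at 0.79 and the histone genes at −0.32, and on STEE30-M replicate 2 the histone genes (0.24) stand apart from the proliferating-cell markers (−0.18).

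Genes that act with the clustered histones were read from lists. Of 32 genes of S phase and proliferation, all above background, 0 passed in STEE30-M and 2 in STEE50-M against Ctrl-M, and 1 passed between the doses, against 4.09%, 5.05% and 4.61% of all probe sets in that order. Ccne1, cyclin E1, which activates Cdk2 at entry into S phase, had 8.97 and 8.90 in STEE50-M and 9.43 and 9.60 in Ctrl-M, without overlap (−0.58, SE 0.20, unadjusted p = 0.019, adjusted p = 0.952, limma). It was also the gene that passed between the doses, since STEE30-M stood at 9.45 and 9.48 (−0.53, unadjusted p = 0.0283). E2f2, a transcription factor of the same transition, had 9.94 and 10.20 in STEE50-M and 9.40 and 9.52 in Ctrl-M (0.61, SE 0.25, unadjusted p = 0.0353). The 2 called genes differed in direction, and the median of the list was −0.12 in STEE50-M. In STEE50-M, 27 of the 32 were higher on replicate 1, with a median gap of 0.29. Mki67, Top2a, Ccnb1 and Cdk1 are also among the markers of proliferating cells, so these lists are not independent.

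Of 20 genes for the processing and turnover of histone mRNA, 0 passed in STEE30-M and 1 in STEE50-M against Ctrl-M, and 1 passed between the doses, against 4.09%, 5.05% and 4.61% of all probe sets in that order. The first was Zfp473, part of the machinery that cleaves histone pre-mRNA, with 5.39 and 4.70 in STEE50-M and 4.35 and 4.04 in Ctrl-M, but it was below background. The one between the doses was Upf1, a helicase needed for histone mRNA decay, which had 7.51 and 7.59 in STEE50-M and 6.71 and 6.77 in STEE30-M (0.81, SE 0.20, unadjusted p = 0.00345, adjusted p = 0.997, limma), and Ctrl-M lay between them at 7.08 and 7.28. Slbp, which binds the stem-loop, had 10.04 and 10.07 in Ctrl-M, 9.98 and 10.33 in STEE30-M and 10.35 and 10.10 in STEE50-M. It passed in no comparison, both STEE50-M arrays lay just above both Ctrl-M arrays, and the STEE30-M arrays overlapped with both groups.

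The variant histones, which are encoded by separate genes, most of them with polyadenylated mRNA, showed a smaller gap between the STEE50-M arrays, which was not tested. All 11 were above background and 0 passed in any comparison (smallest unadjusted p 0.209, limma), against 4.09% to 5.05% of all probe sets. STEE50-M replicate 1 was higher in 10 of the 11, with a median gap of 0.24. H3f3b, which encodes H3.3, had 15.19 and 15.29 in Ctrl-M, 15.34 and 15.41 in STEE30-M and 15.46 and 15.35 in STEE50-M. Cenpa, the H3 variant of centromeres, had 11.85 and 11.53 in Ctrl-M, 11.64 and 11.82 in STEE30-M and 11.82 and 11.01 in STEE50-M. The first was close on the 2 STEE50-M arrays, and the second had a gap of the size seen in the clustered genes.

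Clustered genes known to give polyadenylated transcripts in non-dividing tissue were represented by 7 probe sets, all above background, and 0 passed in any comparison, against 4.09% to 5.05% of all probe sets. Their median gap in STEE50-M was 0.46, with replicate 1 higher in 6 of 7. The 3 testis genes were Hist1h1t, Hist1h2aa and Hist1h2ba, of which 2 were above background and 1 passed in STEE30-M, against 4.09% of all probe sets. This was Hist1h1t, which lies below background and whose call was lost under the alternatives named above.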

How the data were processed

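Total RNA of C2C12 myotubes was hybridised to 6 Clariom S Mouse arrays (2 for each of 3 groups), grouped by the sample labels. The authors deposited log2 signals made by SST-RMA over all arrays (Expression Console 1.4.1.46), rounded to 2 decimals, and the series value table equalled them in all 173076 values. Quantile normalization within this step sets the arrays to nearly equal distributions, so a shift shared by most genes would not be seen. The deposited workbook holds the authors' log2 group averages on a narrower scale (SD over probe sets 2.23, against 3.39 for the per-array Ctrl-M means), used only as an alternative, and the fold changes and p-values of their own comparisons, which were not used.

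After 6640 control entries were left out, 22206 probe sets entered limma 3.58.1 in R 4.3.3 (3 group means, 3 residual and 5.75 prior degrees of freedom), without a filter on signal. The thresholds of the study, an unadjusted p under 0.05 and a fold of 1.2 (read as linear), were applied, with Benjamini-Hochberg adjustment over all probe sets. With 2 arrays a group the number of arrays limits precision, and an exact test cannot go below p = 0.333. The fit was also run on simulated data with the spread of these arrays and errors independent between probe sets. Such data hold no gap shared by many genes, so they do not bear on the STEE50-M gap.

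Members named were those past the thresholds, the 3 of each class with the highest signal, testis genes and probe sets with several symbols. Genes of other lists were named where they passed and variant histones without that condition, and any further gene was named after its values had been seen. Lists covered variant histones, histone mRNA processing, chaperones, transcriptional activators, S phase, tissue-expressed and testis histone genes, and markers of myotubes, myoblasts, proliferating cells and fibroblasts. The members and lists were chosen with earlier results of these data known. Beside leaving out each array, 15 alternatives were tried. Promoter sequences were taken from RefSeq (GRCm38.p6).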

Additional observations from a re-analysis of the deposited data

How the results depend on the processing

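With 2 arrays a group, all histone results are limited by the number of arrays, and the 2 STEE50-M arrays fell on opposite sides of Ctrl-M. For STEE30-M against Ctrl-M, the 1 member past the thresholds became 0 with dim probe sets left out, with the unmoderated test, with an intensity trend in the variance prior, with only the 4 arrays compared and with a fold minimum of 1.5. For STEE50-M against STEE30-M, the count of 0 became 1 (Hist1h1t, higher) with quantile normalization, beside 4.61% of all probe sets in the fit without it. When each array was left out in turn, the counts ran from 0 to 3 for STEE30-M against Ctrl-M, from 0 to 6 for STEE50-M against Ctrl-M and from 0 to 2 for STEE50-M against STEE30-M. The medians of the log2 fold changes ran from −0.08 to 0.23, from −0.31 to 0.37 and from −0.37 to 0.29 in the same order. The largest moves came from STEE50-M replicate 1 and replicate 2. The cause of these moves was not tested.

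The replicate numbers are not stated to pair the arrays. Over all probe sets the deviations of same-numbered arrays correlated at 0.0228, 0.0636 and −0.00761, which cannot show whether same-numbered cultures were handled together. In a paired fit, in which the replicate number was a block, the counts of members called were 1, 0 and 0 and the medians 0.09, 0.04 and −0.04, as without it. The number above background was 61 without any 1 array, 62 with the background at the 90th percentile and 60 at the 99th. With the authors' averages the medians were 0.06, 0.03 and −0.02. Under alternatives that kept all arrays, the medians kept their direction, and the values that changed sign belonged to named probe sets that were not called, all with log2 differences between −0.05 and 0.06 (with quantile normalization the probe set of Hist1h2ao, Hist1h2ap, Hist1h2ai and Hist1h2ah in STEE30-M, and Hist1h4n and Hist2h3c1 with their identical probe sets in STEE50-M, and with median centring Hist1h2aa between the doses).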

Other observations

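Histone chaperones, which carry new histones to DNA, were all above background (20 of 20), and 0 passed the thresholds in any comparison (limma, smallest unadjusted p 0.064), against 4.09% to 5.05% of all probe sets. Their median log2 fold change was −0.09 in STEE30-M and −0.16 in STEE50-M against Ctrl-M, with 14 of 20 below 0 at either dose. In STEE50-M, replicate 1 was higher in 9 and lower in 10 of the 20 (median −0.02).

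Of 9 general transcriptional activators of histone genes, among them those that read the octamer and CCAAT, 8 were above background and 0 passed in any comparison, against the same shares of all probe sets. Their median gap in STEE50-M was −0.10, with replicate 1 higher in 4 of 9.

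Myh3, the embryonic myosin heavy chain, was the 1 of 12 myotube markers that passed in STEE50-M against Ctrl-M (5.05% of all probe sets), with 17.13 and 17.67 in STEE50-M and 16.64 and 16.88 in Ctrl-M (log2 fold change 0.64, SE 0.24, unadjusted p = 0.0276, adjusted p = 0.952, limma). Notch3, a receptor of reserve cells, was the 1 of 10 markers of myoblasts and reserve cells that passed, at 30 µg/mL (4.09% of all probe sets) and at 50 µg/mL, with 7.84 and 7.12 in STEE30-M and 7.96 and 7.75 in STEE50-M, against 6.57 and 6.95 in Ctrl-M (0.72 with unadjusted p = 0.0314 and 1.10 with unadjusted p = 0.00387, both against the same Ctrl-M arrays).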
